A study of Homo sapiens with 2 samples.

Results

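Among the most heavily sequenced RNAs of T47D mammospheres were 5 structured non-coding RNAs, RN7SL1 and RN7SL2 (7SL), RN7SK (7SK), RMRP and RPPH1 (H1), which are described here in CIC knockdown and control cells. They were taken by gene symbol from the annotated gene table, where all 5 symbols were found once each among 46732 genes. T47D is an established line of luminal, oestrogen receptor-positive breast cancer cells, and CIC (capicua) is a DNA-binding repressor. Both groups grew for 7 days as primary and, after passage, for 7 days as secondary spheres. In the labels they differed only as CIC knockdown or control. How CIC was knocked down, and whether the control carried a non-targeting construct, is not stated in the labels. Each group had 1 library, made from total RNA with a stranded kit that removes ribosomal RNA and makes no poly(A) selection. The study's design speaks of duplicates, but each table held 1 column per group, and whether that column pools them is not stated. There is therefore no replicate check, and no test or p-value is given. The 95% intervals below are of the exact (Clopper-Pearson) kind and cover counting error at most. They treat each estimated count as an independent draw. PCR copies are not independent molecules, so the intervals can be too narrow even for counting error.

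All of these RNAs are made by RNA polymerase III and lack a poly(A) tail. 7SL is the RNA scaffold of the signal recognition particle, which binds signal peptides as they leave the ribosome and carries the ribosome to the Sec61 channel of the endoplasmic reticulum. The Alu repeats of the human genome derive from it. 7SK holds the kinase P-TEFb (CDK9 with cyclin T) inactive together with HEXIM, LARP7 and MEPCE, and so sets how much P-TEFb can release paused RNA polymerase II. RMRP is the RNA of RNase MRP, which cleaves precursor ribosomal RNA. RPPH1 is the catalytic RNA of RNase P, which trims the 5′ ends of precursor tRNAs. Both ribozymes share most of their proteins.

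Sequences of 7SK and of the ribozyme RNAs are shown because they set how far reads can be told apart between genes. They are the GENCODE transcripts on GRCh38, 5′ to 3′, with T for U. RN7SL1 and RN7SL2 both lie on chromosome 14, on the plus and the minus strand.
RN7SK has 328 bases on the plus strand, of which the first 300 are shown (chr6:52995621-52995920). Its capitals mark GATC, found at bases 12, 41 and 63. The GATC pairs of the 5′ hairpin of 7SK are known as the place where HEXIM binds.
RN7SK: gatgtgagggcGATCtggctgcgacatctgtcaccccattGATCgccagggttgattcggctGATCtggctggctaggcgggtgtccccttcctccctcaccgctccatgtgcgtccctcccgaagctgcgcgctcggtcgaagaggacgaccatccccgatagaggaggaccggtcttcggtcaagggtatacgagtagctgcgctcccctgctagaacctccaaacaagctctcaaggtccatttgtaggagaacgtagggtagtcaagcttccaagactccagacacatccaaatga
RMRP lies at chr9:35657751-35658018. RPPH1 has 333 bases, of which the first 300 are shown (chr14:20343108-20343407), and both lie on the minus strand. The capitals mark the longest run that the ribozyme RNAs share, which has 9 bases.
RMRP: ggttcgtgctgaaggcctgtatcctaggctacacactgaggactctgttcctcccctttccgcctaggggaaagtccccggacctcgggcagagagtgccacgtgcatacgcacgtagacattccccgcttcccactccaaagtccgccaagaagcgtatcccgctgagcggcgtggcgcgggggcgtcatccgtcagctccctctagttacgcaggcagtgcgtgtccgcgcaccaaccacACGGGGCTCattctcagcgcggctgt
RPPH1: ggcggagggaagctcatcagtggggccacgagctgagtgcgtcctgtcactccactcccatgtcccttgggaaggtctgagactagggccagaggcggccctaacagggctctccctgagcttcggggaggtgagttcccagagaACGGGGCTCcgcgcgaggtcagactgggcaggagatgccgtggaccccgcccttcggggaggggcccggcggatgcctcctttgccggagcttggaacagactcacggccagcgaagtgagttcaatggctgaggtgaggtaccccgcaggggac

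Over 299 aligned positions RN7SL1 and RN7SL2 differed at 4, an identity of 98.7%. Of the 200 windows of 100 bases in RN7SL1, 106 were found unchanged in RN7SL2, and the longest shared run held 205 bases. A read from that run cannot be assigned to one gene or the other by its sequence. The division of counts between RN7SL1 and RN7SL2 is therefore uncertain, while their sum is less so. RMRP and RPPH1 shared no window of 100 bases. The GC content of the members lay between 58.2% in RN7SK and 64.6% in RPPH1. The deposited table gave lengths of 299 bases for both 7SL genes, 332 for RN7SK, 268 for RMRP and 341 for RPPH1.

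The library labelled CIC knockdown held 68420805 counts and the control library 47099221, a ratio of 1.45. Counts were found for 24664 genes in the CIC knockdown library and 23616 in the control library. The label was checked first. CIC itself had 872 counts in the CIC knockdown library and 607 in the control library, a log2 ratio of -0.03 after scaling for depth, so the mRNA of the targeted gene was not lower beyond counting error. ETV4, a repression target of CIC, had 557 and 81 counts (log2 ratio 2.21), and ETV5, another such target, had 1268 and 174 (log2 ratio 2.30), CIC knockdown first. All 8 luminal markers were measured, 2 of them higher and 4 lower by the counting interval. The progesterone receptor gene PGR had 3466 counts in the CIC knockdown library and 1141 in the control library (log2 ratio 1.05) and FOXA1 had 11992 and 7241 (0.18), while the other 6 lay between -0.06 for GATA3 and 0.0090 for KRT19. The 4 leukocyte markers summed to 19 counts in the CIC knockdown library and 4 in the control library, the 3 endothelial markers to 63 and 30, and the 4 fibroblast markers to 190 and 73. Most of the fibroblast counts were those of COL1A1, with 168 in the CIC knockdown library and 58 in the control library. Its ratio was 1.95 (1.46 to 2.71), and it was named after its value was seen. The leukocyte genes PTPRC and CD3E and the fibroblast genes COL1A2 and PDGFRB had 0 counts in both libraries. The part of these few counts in the results was not tested.

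The 5 RNAs kept nearly the same place in both libraries. Together they took 16.9% of all counts in the CIC knockdown library (interval 16.93% to 16.95%), against 17.3% in the control library (17.27% to 17.29%), a log2 ratio of -0.042. Log2 ratios are CIC knockdown over control, with library sizes scaled by TMM (trimmed mean of M values) and a prior count of 2. On the per-length scale of TPM, which corrects for gene length and sums alike in both libraries, the same RNAs made up 56.7% of the summed TPM in the CIC knockdown library and 56.9% in the control library. Per length, these 5 genes thus outweighed the other 46727, whose TPM summed to 433030 in the CIC knockdown library and 430543 in the control library. The protein-coding genes held 78.5% of counts in the CIC knockdown library and 78.2% in the control library, and 34.4% and 33.8% of the summed TPM.

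RN7SL2 was the most heavily counted gene of the annotated table in both libraries, but not of the table with assembled transcripts. It had 3761461 counts, or 5.50% of the total, in the CIC knockdown library and 2667780, or 5.66%, in the control library. The ratio after scaling was 0.962 (0.960 to 0.963), or -0.056 on the log2 scale. Its level was 189808 TPM in the CIC knockdown library and 192668 TPM in the control library.

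RN7SL1, the near-identical 7SL gene, came next in both libraries of the annotated table. It had 3475562 counts (5.08%) in the CIC knockdown library and 2325301 (4.94%) in the control library, a ratio of 1.02 (1.018 to 1.021) and a log2 ratio of 0.028. In TPM it stood at 175381 in the CIC knockdown library and 167934 in the control library. The near-identical 7SL genes thus lay on opposite sides of equality. RN7SL1 had 0.924 counts for each count of RN7SL2 in the CIC knockdown library and 0.872 in the control library of the annotated table. Their sum was 10.6% of counts in both libraries (10.58% and 10.60%), with a ratio of 0.989 (0.987 to 0.990).

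RN7SK, the brake on P-TEFb, had 2625431 counts (3.84%) in the CIC knockdown library and 1947129 (4.13%) in the control library. Its ratio of 0.920 (0.918 to 0.921), or -0.12 on the log2 scale, was the farthest from 1 among the members. Its level was 119314 TPM in the CIC knockdown library and 126645 TPM in the control library. Of all genes with at least 100 counts in a library, 40.7% had a smaller absolute log2 ratio than RN7SK. Set against RN7SL1 in the same library, RN7SK had 0.755 counts per count in the CIC knockdown library and 0.837 in the control library.

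RPPH1, the RNA of RNase P, had 1234619 counts (1.80%) in the CIC knockdown library and 840216 (1.78%) in the control library. Its ratio was 1.00 (0.999 to 1.005), and it was the member whose interval held 1. In TPM it stood at 54626.9 in the CIC knockdown library and 53206.7 in the control library.

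RMRP, the RNA of RNase MRP, had 492266 counts (0.719%) in the CIC knockdown library and 358228 (0.761%) in the control library. Its ratio was 0.937 (0.933 to 0.941), or -0.094 on the log2 scale. Its level was 27713.6 TPM in the CIC knockdown library and 28863.9 TPM in the control library. Per length, RMRP stood at 0.507 of the RPPH1 level in the CIC knockdown library and 0.542 in the control library.

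**Figure D1:**
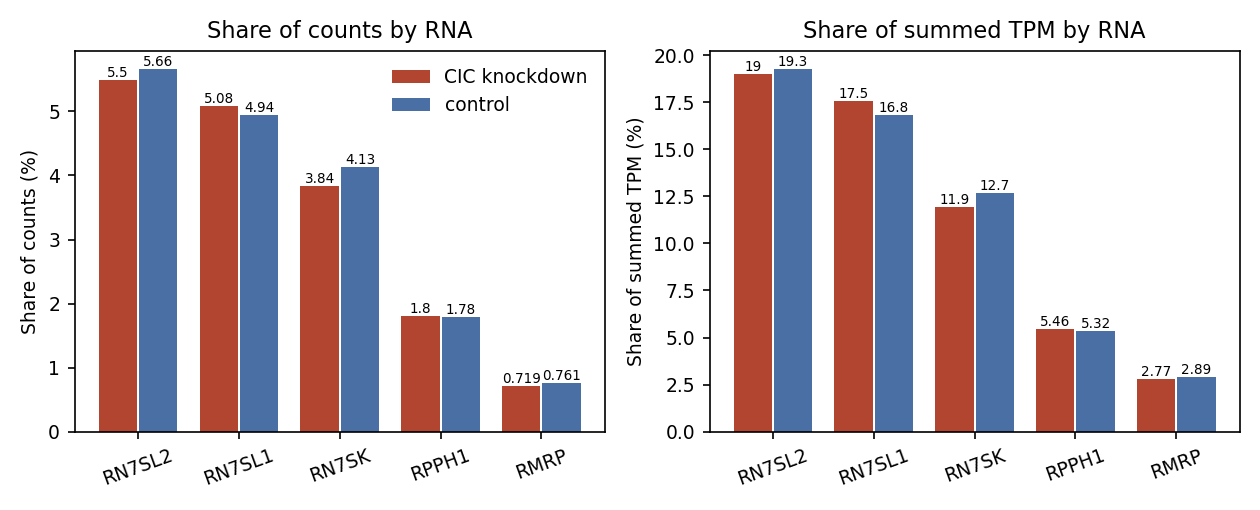
Share of all counts (left) and of the summed TPM (right) taken by each of the 5 RNAs, in percent, in the CIC knockdown library (red) and the control library (blue), 1 library each, with no error bars. The order is the same in both libraries on both scales, and the share of RN7SK was 3.84% against 4.13% of counts.

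By TPM in the annotated table the order was RN7SL2, RN7SL1, RN7SK, RPPH1 and RMRP in both libraries, and these held the first 5 places among all genes. With 1 library per group there is no spread against which neighbours in this order can be set. By counts, the translation elongation factor EEF1A1, with 625919 counts in the CIC knockdown library and 472868 in the control library, came between RPPH1 and RMRP.

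None of the 5 members was past 2-fold in either direction, while 2.14% of the 13722 genes with at least 100 counts in a library were. None was past 1.2-fold either, against 29.2% of those genes. By the counting interval, RN7SL1 was higher in the CIC knockdown library, beside 33.8% of all such genes. RN7SL2, RN7SK and RMRP were lower, beside 27.3% of all such genes. In all, 4 members had an interval off 1, beside 61.1% of all such genes. Genes with more counts have narrower intervals, so these shares do not compare like depths. The median log2 ratio was -0.056 over the members and 0.023 over all genes tested. The other 28 genes with at least 100000 counts in a library, which had depths nearer to those of the members, ran from -0.35 for the translation factor EIF4B to 1.2 for the nuclear RNA NEAT1, with a median of -0.021. NEAT1 stood at -0.37 in TPM, so its direction turned with the unit. EIF4B and NEAT1 were named after their values were seen.

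The direction of RN7SL2 depended on which table was read, as shown in the plot of log2 ratios by scaling. Library totals, DESeq2 size factors, protein-coding totals, TMM without these RNAs or over well-counted genes, a smaller prior count, TPM and FPKM left every member within 0.13 of equality on the log2 scale. RPPH1 changed sign between these scalings, with -0.0017 as its lowest value and 0.038 as its highest. In the second gene table, to which the authors added transcripts assembled from these libraries, RN7SL2 stood at 0.84.

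**Figure D2:**
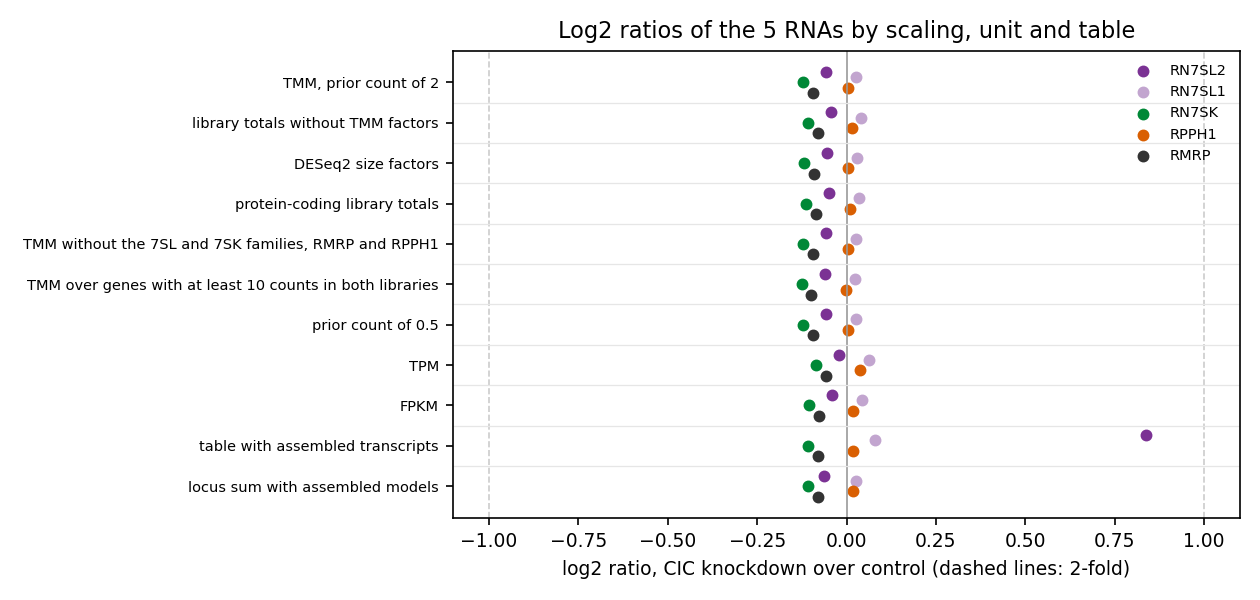
Log2 ratio of CIC knockdown over control for each of the 5 RNAs (coloured points) under each scaling, unit and gene table (rows), with dashed lines at 2-fold and 1 library per group. RN7SL2 in the table with assembled transcripts is the point that stands apart, at 0.84, and it returns to -0.064 when the assembled models over its locus are added.

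In that table RN7SL2 had 2559300 counts in the CIC knockdown library and 985971 in the control library. It also held 5 spliced models on the strand of RN7SL2, each with one exon over RN7SL3 and one over RN7SL2. RN7SL3, at chr14:49853616-49853914, is a further 7SL copy. Of 299 positions, it differed from RN7SL2 at 11 and from RN7SL1 at 7. Together the joined models held 806718 counts in the CIC knockdown library and 1437223 in the control library. RN7SL2 and these models summed to 3366018 counts in the CIC knockdown library and 2423194 in the control library, a log2 ratio of -0.064, close to the -0.056 of the annotated table. The annotated RN7SL2 model was assigned 76.0% of that sum in the CIC knockdown library and 40.7% in the control library. One joined model had 135737 counts in the CIC knockdown library and 0 in the control library. Another had 0 counts in the CIC knockdown library and 277670 in the control library. A further one had 41820 counts in the CIC knockdown library and 659654 in the control library. These 3 joined models cover 293 to 295 bases of RN7SL2 and differ mainly in where, on the minus strand, their exon over RN7SL3 begins. In the table with assembled transcripts the 5 RNAs held 14.0% of counts in the CIC knockdown library and 12.3% in the control library. This was the opposite direction to the annotated table. The sum of RN7SL2 and its joined models was 89.5% of the annotated RN7SL2 counts in the CIC knockdown library and 90.8% in the control library. The joined models thus held only part of the counts that RN7SL2 lost between the tables.

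**Figure D3:**
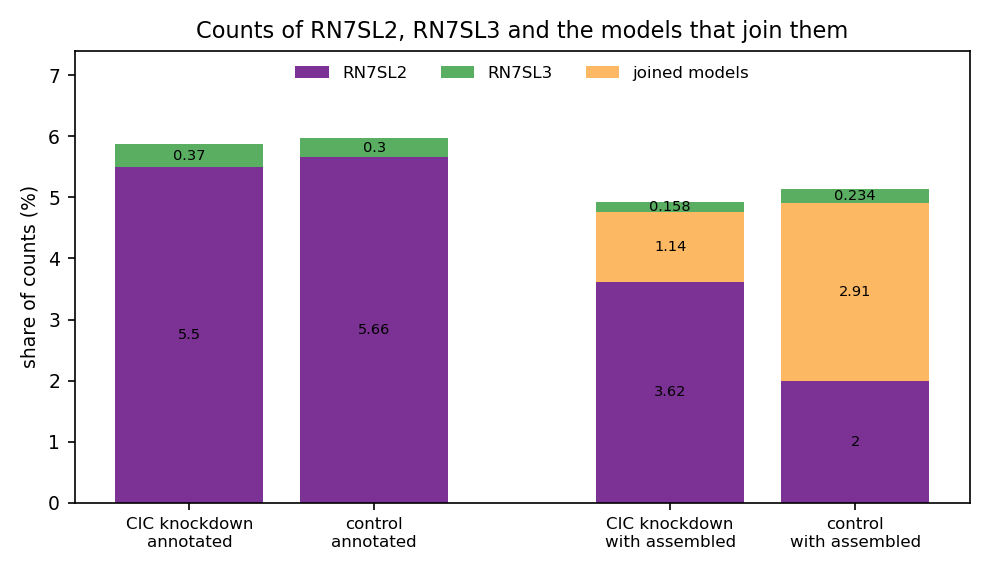
Share of all counts, in percent, given to RN7SL2 (purple), to RN7SL3 (green) and to the models that join them (orange), in the annotated table (left pair) and in the table with assembled models (right pair), with CIC knockdown left of control in each pair. The stacks are nearly level within each table, at 5.87% and 5.96% and at 4.92% and 5.14%, while RN7SL2 alone stood at 3.62% and 2.0% in the table with assembled models.

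The summed RN7SL2 and RN7SL3 counts were chosen for comparison after the data were seen. In the annotated table they were 4014740 in the CIC knockdown library and 2809194 in the control library (log2 ratio -0.037). With the joined models included in the other table they were 3477860 and 2538476 (log2 ratio -0.084). RN7SL3 alone stood at 0.29 in the annotated table, where it had 253279 counts in the CIC knockdown library and 141414 in the control library. In the table with assembled models it stood at -0.58, with 111842 and 115282 counts, so its direction also turned with the table. RN7SL1 had 2985203 counts in the CIC knockdown library and 1944702 in the control library in that table (log2 ratio 0.080), above RN7SL2 in both libraries, and 3695884 and 2497412 with its 2 sense models (log2 ratio 0.027). The counts of RN7SK, RMRP and RPPH1 were the same in both tables, and in the control library of the second table RN7SK, too, stood above RN7SL2.

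The 7SL and 7SK families hold many copies beside the members. The 7SL family had 141 genes and 11.6% of counts in both libraries, of which the 139 genes other than RN7SL1 and RN7SL2 held 1.02% in the CIC knockdown library and 0.972% in the control library. RN7SL4P on chromosome 3 had 440168 counts in the CIC knockdown library and 315832 in the control library (log2 ratio -0.073). Compared position by position without gaps, its first 240 bases differed from RN7SL2 at 7 positions and the remaining 55 at 39. Whether inserted or lost bases shift that last part was not tested. Of its 196 windows of 100 bases, 93 were found in RN7SL2. RN7SL674P had 403 counts in the CIC knockdown library and 299 in the control library (log2 ratio -0.12), with an interval of the ratio that held 1. The 7SK family had 13 genes, and the 12 other than RN7SK held 0.0236% of counts in the CIC knockdown library and 0.0276% in the control library. RN7SKP80 on chromosome 22 accounted for 16116 counts in the CIC knockdown library and 12943 in the control library, a log2 ratio of -0.24. Whether these copies are transcribed or receive reads from the members was not tested.

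Genes of most like level were found by the Euclidean distance of log2 CPM over the 2 libraries. RN7SL1 and RN7SL2 were nearest to each other (distance 0.229), and RN7SK was next for both. RMRP was nearest to RN7SL4P (0.243), then EEF1A1 (0.530) and the keratin KRT8 (0.751). RPPH1 had no close neighbour, with EEF1A1 at 1.28, RN7SK at 1.63 and RMRP at 1.81. With 2 libraries, such a distance measures likeness of level more than of pattern.

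On the strand opposite to the members other than RPPH1, counts were few, and their share was about 2-fold lower in the CIC knockdown library. Assembled models antisense to a member were found for 4 of the 5 RNAs. Over RN7SL1 the antisense model had 3304 counts in the CIC knockdown library and 4569 in the control library, a log2 ratio of -1.01. Over RN7SL2, 2 models had 3702 counts in the CIC knockdown library and 5305 in the control library (-1.06). The model over RN7SK had 1846 counts in the CIC knockdown library and 3434 in the control library (-1.43), and that over RMRP had 502 and 788 (-1.18). By TMM scaling all 5 models were thus more than 2-fold lower, against 3.86% of the 207 other antisense models with at least 100 counts in a library, whose median was -0.045. The model over RN7SL1 (ratio 0.498, 0.476 to 0.521) and 1 over RN7SL2 (0.498, 0.474 to 0.522) lay at that threshold, within their intervals. Other scalings were not tried for these models. As a share of the counts on both strands, the antisense counts were 0.0893% in the CIC knockdown library and 0.183% in the control library for RN7SL1, and 0.110% and 0.218% for RN7SL2. For RN7SK the shares were 0.0703% in the CIC knockdown library and 0.176% in the control library, and for RMRP 0.102% and 0.219%. The intervals of the paired shares did not overlap.

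For RPPH1 the opposite strand belongs to PARP2, which encodes a poly(ADP-ribose) polymerase of DNA repair. Its transcript that starts upstream and spans RPPH1 (chr14:20343041-20357904) had 1574 counts in the CIC knockdown library and 2412 in the control library, a log2 ratio of -1.17. The other 3 PARP2 transcripts, which begin beyond RPPH1, summed to 1104 counts in the CIC knockdown library and 401 in the control library (0.91). Summed over the gene, PARP2 had 2678 counts in the CIC knockdown library and 2813 in the control library, a log2 ratio of -0.62. The direction given for PARP2 thus turned on the transcript that overlaps RPPH1. Of the summed counts of RPPH1 and the spanning transcript, the transcript made up 0.127% in the CIC knockdown library and 0.286% in the control library. That transcript has 2296 bases, and its counts were not restricted to those over RPPH1. These shares are therefore not a like measure to those of the antisense models.

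A difference of like size was seen over most of the abundant coding genes that could be read in this way. Models whose introns match those of a gene on the opposite strand had a median log2 ratio of -0.97 over the 54 with at least 100 counts in a library, and 46.3% of them were more than 2-fold lower. Among 13 genes with at least 100000 counts and such a model, the opposite-strand share was lower in the CIC knockdown library, with intervals apart, for 11. EEF1A1 had 0.0875% in the CIC knockdown library and 0.177% in the control library, and KRT8 had 0.105% and 0.230%. These genes were chosen after values were seen. How completely each library kept strand was not tested, and the opposite-strand counts cannot be told apart from transcripts made from that strand.

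**Figure D4:**
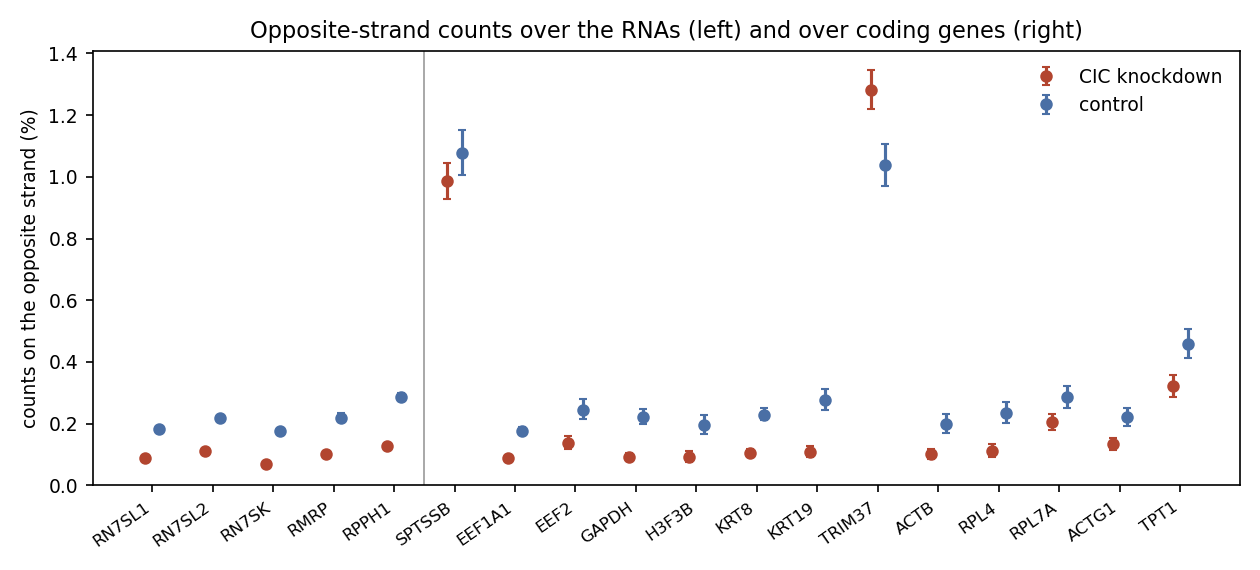
Counts on the opposite strand as a percent of the counts on both strands, over the 5 RNAs (left of the line; for RPPH1 the PARP2 transcript that spans it) and over 13 coding genes (right), in the CIC knockdown library (red, left point) and the control library (blue, right point), with exact 95% counting intervals. Over the RNAs other than RPPH1 the CIC knockdown library lies between 0.0703% and 0.110% and the control library between 0.176% and 0.219%. The RPPH1 points (0.127% and 0.286%) use all counts of the PARP2 transcript, not only those over RPPH1, so they are not a like measure.

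The remaining genes within 5 kb of a member were weakly counted or changed little. The ribosomal protein gene RPS29 at RN7SL1 had 19041 counts in the CIC knockdown library and 13134 in the control library (log2 ratio -0.02). Its transcripts beside RN7SL1 held 18948 and 13094 of these. Its transcript that spans RN7SL1 had 93 counts in the CIC knockdown library and 40 in the control library. The ratio of that transcript was 1.56 (1.08 to 2.36), the opposite direction to the PARP2 transcript that spans RPPH1. LOC107987206 over RN7SL1 had 82 counts in the CIC knockdown library and 53 in the control library, and LOC105378179 over RN7SL2 had 59 and 39. The glutathione transferase gene GSTA4 beside RN7SK had 96 counts in the CIC knockdown library and 62 in the control library. Beside RMRP, ARHGEF39 had 436 counts in the CIC knockdown library and 328 in the control library (-0.14). CCDC107, which also lies upstream of RMRP, had 271 counts in the CIC knockdown library and 137 in the control library (0.43), and it and PARP2 were the neighbours whose intervals left out 1.

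The protein partners of each RNA were counted from lists of genes with at least 50 counts in a library. Over all 15303 such genes, 32% were higher and 26.6% lower by the counting interval, 18.1% were past 1.2-fold higher and 14.8% past 1.2-fold lower, and the median log2 ratio was 0.021. No gene of the lists below was past 2-fold, against 1.86% higher and 1.46% lower over all such genes.

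For 7SL, all 8 genes of the signal recognition particle and its receptor were measured. By interval, 1 was higher and 4 were lower, with a median of -0.055. SRP14, which binds the Alu domain of 7SL with SRP9, stood lowest at -0.45, with 6733 counts in the CIC knockdown library and 6273 in the control library, and was the one gene past 1.2-fold. SRP9 had 40685 counts in the CIC knockdown library and 29165 in the control library (-0.07). SRP19 stood at -0.12, the GTPase SRP54 at -0.06, SRP68 at -0.05, SRP72 at 0.00, and the receptor subunits SRPRB at 0.01 and SRPRA at 0.17. Of the 11 genes of the Sec61 channel and its partners, 4 were higher and 5 lower by interval (median -0.0058). SEC63, the chaperone partner of the channel, was lowest at -0.29, followed by SSR3 at -0.18 and SSR2 at -0.11, which encode subunits of the associated TRAP complex. The channel subunit genes SEC61A2 and SEC61A1 stood at 0.17 and 0.08, and TRAM1 at 0.12.

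For 7SK, the 7 genes of its particle and of P-TEFb had a median of -0.17, with 1 higher and 4 lower. The cyclin T genes were CCNT2 at -0.42, with 5697 counts in the CIC knockdown library and 5195 in the control library, and CCNT1 at -0.22, with 7850 and 6219. The inhibitor genes HEXIM2 and HEXIM1 stood at -0.21 and -0.17, and the interval of HEXIM2 held 1. LARP7, which binds the 3′ end of 7SK, stood at -0.08, the kinase gene CDK9 at -0.01, and MEPCE, which caps the 5′ end, at 0.11. Of 13 genes of factors that recruit P-TEFb or act at the pause, 7 were higher and 1 lower, and the median was 0.061. JMJD6 stood highest at 0.32 and MLLT1 at 0.20, and 2 genes of the list were past 1.2-fold, both higher. AFF4, the scaffold of the super elongation complex, was lowest at -0.21, with MLLT3 at -0.03 and SUPT5H at -0.02.

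For RMRP and RPPH1, none of the 12 protein genes of RNase P and RNase MRP was lower by interval and 6 were higher, with a median of 0.16. RPP25 stood at 0.60, with 1056 counts in the CIC knockdown library and 473 in the control library, and RPP21, a protein of RNase P, at 0.53, with 611 and 289. POP1, a large protein shared by both enzymes, stood at 0.38, with 1270 counts in the CIC knockdown library and 665 in the control library. These and RPP14 (0.28, named after its value was seen) were the 4 past 1.2-fold higher. RPP25L stood at -0.01, NEPRO at 0.0074 and POP5 at 0.06. While most of these protein genes lay above equality, RPPH1 stood at 0.0031 and RMRP at -0.094.

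**Figure D5:**
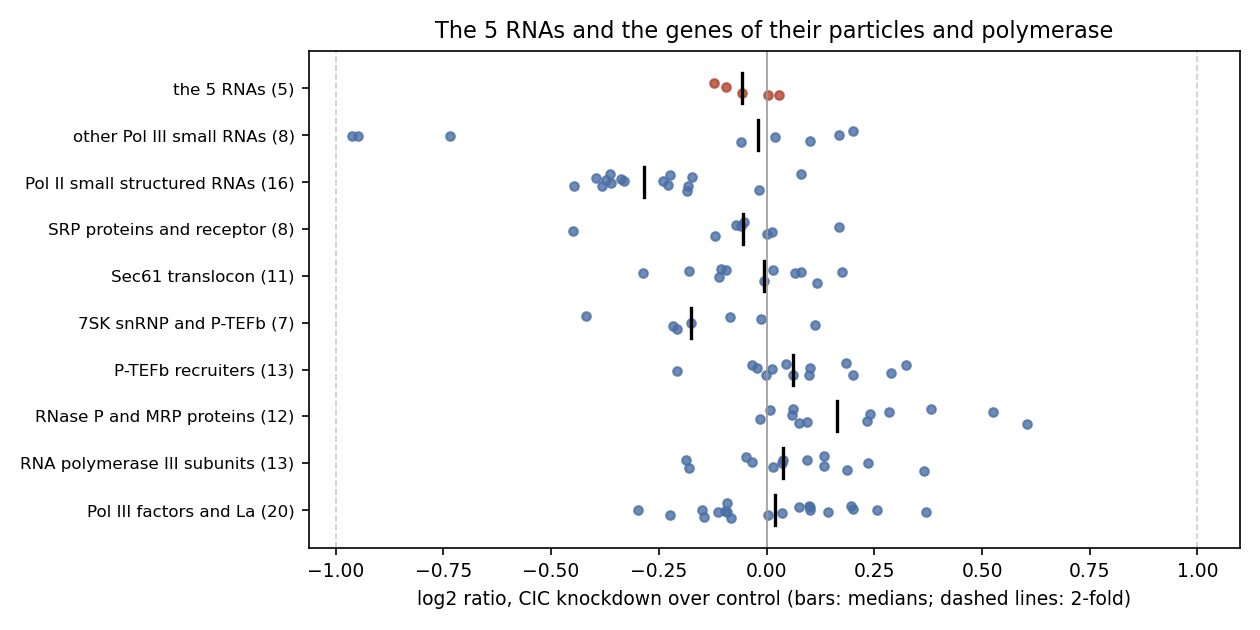
Log2 ratio of CIC knockdown over control for the 5 RNAs (red, top row) and for each measured gene of the other lists (blue), with black bars at the medians, dashed lines at 2-fold and the number of genes in brackets, 1 library per group. The 5 RNAs lie between -0.12 and 0.028. The Pol II small RNA genes, mostly copies of U1, U3 and U4, have a median of -0.29, and the RNase P and MRP proteins a median of 0.16.

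For the polymerase that makes these RNAs, 5 of 13 subunit genes were higher and 1 was lower, with a median of 0.038. POLR3K stood at 0.37, POLR3C at 0.24 and the largest subunit gene POLR3A at 0.19. POLR3G stood at -0.18 and POLR3D at -0.05, with intervals that held 1. In TPM, POLR3C stood at 0.0092 and POLR3D at 0.16, so the direction of POLR3D turned with the unit. POLR3K, POLR3A and POLR3G kept their direction in TPM. Of 20 genes of its transcription factors and of La, 8 were higher and 7 lower by interval (median 0.019). GTF3C6, a subunit of TFIIIC, stood at 0.37, SNAPC2 at 0.26 and the TATA-binding protein gene TBP at 0.20. GTF3C4 was lowest at -0.30, with SNAPC3 at -0.22 and the TFIIIB gene BDP1 at -0.15. SNAPC subunits act at the upstream promoters of the type that drives 7SK, RMRP and RPPH1.

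Other small RNAs of RNA polymerase III were far less counted. The list held the 5S ribosomal RNA genes RNA5S1 to RNA5S17, and the kit removes ribosomal RNA. How well the libraries kept RNAs shorter than the members was not tested, so low counts do not show low levels in the cells. Of the 32 listed, 8 had at least 50 counts in a library, and all 32 summed to 2419 counts in the CIC knockdown library and 1589 in the control library. BCYRN1, a neuronal relative of the Alu domain, had 1883 counts in the CIC knockdown library and 1117 in the control library (log2 ratio 0.20). RNU6-9, a gene of the spliceosomal U6 RNA, had 53 and 72 counts (-0.96), and the Y RNA genes RNY1 and RNY3 had 65 and 87 (-0.95) and 44 and 51 (-0.73), CIC knockdown first. RNU6-8 stood at 0.17 and VTRNA1-3, a vault RNA, at 0.10, with intervals that held 1. By interval 1 gene was higher and 3 were lower, and the median was -0.020.

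Most measured genes of small structured RNAs made by RNA polymerase II had ratios below 1. Of 27 listed genes, 26 were found and 16 had at least 50 counts in a library, of which 13 were lower and none higher by interval, with a median of -0.29. The 26 genes summed to 341789 counts (0.50%) in the CIC knockdown library and 273485 (0.581%) in the control library, a log2 ratio of -0.23. The U4 gene RNU4-1 stood at -0.45, and the U1 genes RNU1-2 and RNU1-4 at -0.40 and -0.38. The telomerase RNA TERC stood at -0.02, RNU5A-1 at 0.08 and the U3 gene SNORD3D at -0.17. U1, U4 and U3 genes have near-identical copies, so single genes among them are uncertain. All 13 genes lower by interval were copies of U1, U3 or U4. They and the median therefore do not count separate RNAs. The intervals of TERC, RNU12 and RNU5A-1, the other measured genes, held 1. SNORD3A, a U3 gene, alone had 270233 counts in the CIC knockdown library and 216050 in the control library. Less RNA per cell and fewer cells of a kind cannot be told apart in these bulk samples.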

How the data were processed

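Total RNA of T47D secondary mammospheres was sequenced in 2 libraries, 1 per group (CIC knockdown, control). Per the submitters' processing notes, reads passed through Trimmomatic, HISAT2 and StringTie on hg38/GRCh38; their versions and settings are not stated. The deposited estimated counts, FPKM and TPM values came per gene and per transcript, for annotated genes and, in a second set, with assembled transcripts. For 98.9% (CIC knockdown) and 99.2% (control) of transcripts the deposited estimated count lay at most 1 above FPKM times length times a constant (tolerance 0.01), so counts were derived from coverage. No unused sample columns remained (0).

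Counts were scaled with TMM (edgeR 4.0.16; R 4.3.3), and log2 ratios used a prior count of 2. Intervals are exact 95% Clopper-Pearson intervals (scipy 1.17.1). With 1 library per group no test was run. The steps were tested on simulated data, drawn as independent (Poisson) counts. Those data held no PCR copies, replicate spread or division of reads between gene copies, so the width of the intervals was not checked against these. DESeq2 1.42.0 size factors, FPKM and TPM were among the alternatives. Called means past 2-fold. Genes compared had at least 100 counts in a library, list genes 50.

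The members and lists were chosen with earlier results of these data known. Named genes were the members, genes within 5 kb of them, family members with at least 50 counts up to the 5 highest, the 3 highest and 3 lowest of each other list (all in lists of 8 or fewer), the 3 nearest genes by level, and CIC, ETV4 and ETV5; exceptions are said. A few genes and sequences within this rule are not reported here. Sequences were read from GENCODE transcripts of GRCh38.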

Additional observations from a re-analysis of the deposited data

How the results depend on the processing

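No paired analysis was possible because each group had 1 library, and for the same reason no replicate could be left out in turn. Counting intervals at these depths are narrow, so small shifts passed them; no member came past 2-fold, or past 1.2-fold by the scalings tried, apart from RN7SL2 with assembled transcripts. Of 161 recomputed values, 106 stayed within the interval or within 1.5 times the count and 55 moved. No member was called at the outset, so no call could turn to the other direction. The sign did turn for RN7SL2 with assembled transcripts, and for RPPH1 with TMM over genes with at least 10 counts in both libraries. DESeq2 size factors, TMM without the families and a prior count of 0.5 moved no member. Values follow for RN7SL1, RN7SL2, RN7SK, RMRP and RPPH1 in that order. The log2 ratios were 0.041, -0.043, -0.11, -0.080 and 0.017 with library totals, 0.035, -0.050, -0.11, -0.087 and 0.010 with protein-coding totals, 0.063, -0.022, -0.086, -0.059 and 0.038 in TPM, 0.043, -0.041, -0.11, -0.078 and 0.019 in FPKM, and 0.080, 0.84, -0.11, -0.079 and 0.017 with assembled transcripts. TMM over genes with at least 10 counts in both libraries gave 0.023, -0.061, -0.13 and -0.0017 for RN7SL1, RN7SL2, RN7SK and RPPH1. Chosen after the data were seen, the locus sum gave -0.064 for RN7SL2, -0.11 for RN7SK, -0.079 for RMRP and 0.017 for RPPH1, and RN7SL2 with RN7SL3 gave -0.037, or -0.084 with joined models.

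The summed share of the 5 RNAs, CIC knockdown before control, was 21.6% and 22.1% of protein-coding counts, 56.7% and 56.9% of TPM, 14.0% and 12.3% with assembled transcripts, whose direction was the opposite of the annotated table's, and 17.98% and 18.3% for the whole families with RMRP and RPPH1. Halved counts left 2 Sec61 genes, 3 P-TEFb recruiters and 4 polymerase III factors higher by interval. TPM put 2 genes of the 7SK list past 1.2-fold lower and 2 polymerase III factors past it higher. With at least 10 counts, 2 Pol II small RNAs were past 1.2-fold higher; 4 genes of the 7SL family were higher and 4 lower by interval, 12 past 1.2-fold higher and 5 lower; and 1 of the 7SK family was past it each way. The causes were not tested.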

Other observations

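Opposite-strand counts over coding genes, chosen after the data were seen, gave a pattern near that over the RNAs other than RPPH1. The actin gene ACTB had 0.100% of its counts on the opposite strand in the CIC knockdown library and 0.199% in the control library. GAPDH, of glycolysis, had 0.0914% in the CIC knockdown library and 0.223% in the control library, and KRT19 had 0.109% and 0.277%. Over the 11 genes with a lower share, the share in the CIC knockdown library was 0.393 to 0.718 of that in the control library. TRIM37 had 1.28% in the CIC knockdown library and 1.04% in the control library, the one gene of the 13 with a higher share. SPTSSB had 0.986% in the CIC knockdown library and 1.08% in the control library, with overlapping intervals. Both stood above all 11 others in each library.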
